A study of Mus musculus with 12 samples.

Results

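The 49 genes described here encode the proteins that license replication origins, fire them, copy the DNA and supply its precursors, together with the cyclins and the E2F factor of S phase entry. They were chosen by name as a list of replication genes and not by a cut on their measured values, though earlier results of these data were known. Each is read through the probe set of the array that is annotated to that gene alone, and Pcna and Rpa3, which have 2 such probe sets, through the brighter one. All 49 were found among the 19938 genes with a probe set of their own, and all 49 passed the filter on dim genes that left 15950 genes to test. By role they are 6 origin recognition genes (Orc1 to Orc6), the loader Cdc6, 6 Mcm helicase genes (Mcm2 to Mcm7), 6 helicase activation genes (Mcm10, Cdc45, Gins1 to Gins4), the 2 genes of the firing kinase (Cdc7, Dbf4), 6 clamp and clamp loader genes (Pcna, Rfc1 to Rfc5), 5 polymerase and primase genes, 3 genes of the single-strand binding complex, 3 of nucleotide supply, 2 of flap removal and ligation, 2 of chromatin assembly, 3 of fork protection and checkpoint, and 4 cyclin and E2F genes.

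The arrays came from embryoid bodies of the mouse, clusters of embryonic stem cells that differentiate in suspension, made from A2lox cells of the 129P2/OlaHsd background. All of the cells carried a transgene driven by doxycycline (dox). In the knockdown line dox turned on microRNAs against the Geminin transcript (gene Gmnn). Embryoid bodies of that line were given 0.5 µg/ml dox from day 0 and collected on day 4 (3 arrays), beside 3 arrays of the same line and day without dox. In the overexpression line dox turned on Geminin, was given at 0.5 µg/ml from day 3, and the bodies were collected on day 5 (2 arrays with dox and 2 without, replicates 1 and 2) or on day 4 (1 array with dox and 1 without, replicate 3). The stem cells had been kept on irradiated fibroblast feeders, which were removed before the bodies formed. The labels do not tell if replicates were grown apart, so the p-values below weigh differences against a spread over these 12 samples that may be technical.

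Replication origins are licensed in G1, when the origin recognition complex, Cdc6 and Cdt1 load the Mcm helicase onto DNA as an inactive ring. Geminin binds Cdt1 and blocks further loading once S phase has begun, and it is removed at mitosis. Cyclin-dependent kinase and the Cdc7 kinase with its activator Dbf4 then turn the rings into working helicases with Cdc45 and the Gins complex, after which primase, the polymerases, the Pcna clamp and its Rfc loader copy the strands. Many genes of this machinery are activated by E2F factors at the end of G1, and stem cells of the mouse embryo cycle fast with a short G1.

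Promoter sequences are shown because the 49 genes are grouped by function and not by position, and the letters that E2F factors are known to prefer are one feature that many of them share. RefSeq promoters of 300 bases (250 before to 50 after the gene start, build GRCm38.p6) were given for 39 of the 49. The E2F-type letters TTTCGCGC, TTTGGCGC, TTTCCCGC or TTTGCCGC, read on either strand, stood in 13 of these 39 promoters (33.3%), against 704 of 27025 genes in the whole table (2.6%). The letters CCAAT on either strand, which bind the factor NF-Y, stood in 24 (61.5%), against 41.1% of all genes. Both kinds stood in 9 (Mcm3, Mcm5, Mcm6, Mcm7, Orc1, Gins3, Rfc3, Pola1 and Clspn), which is 23.1% of the 39, against 1.26% of all genes. A match is a description of the letters and not a measured site. The lines below give 30 bases around the first E2F-type match of 7 genes with different roles, then the 250 bases before the start of Mcm6, whose promoter held 3 matches, and of Ccne1, whose promoter held 0 matches and whose level differed most by day. Capitals mark E2F-type letters, all sequences run 5′ to 3′ along the gene's own strand, and overlapping matches are joined.
Orc1, chr4:108579416-108579445, plus strand: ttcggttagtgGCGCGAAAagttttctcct
Cdc6, chr11:98908002-98908031, plus strand: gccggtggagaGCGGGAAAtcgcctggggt
Mcm5, chr8:75109345-75109374, plus strand: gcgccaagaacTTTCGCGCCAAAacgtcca
Gins3, chr8:95633507-95633536, plus strand: gcgagtgcggcGCGGGAAAgcgagtttgaa
Rfc3, chr5:151651200-151651229, minus strand: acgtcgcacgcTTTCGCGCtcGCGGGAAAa
Pola1, chrX:93632275-93632304, minus strand: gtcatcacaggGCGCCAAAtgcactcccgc
Clspn, chr4:126556990-126557019, plus strand: accgcgtctggGCGCGAAAgctcgaacttc
Mcm6, chr1:128359706-128359955, minus strand: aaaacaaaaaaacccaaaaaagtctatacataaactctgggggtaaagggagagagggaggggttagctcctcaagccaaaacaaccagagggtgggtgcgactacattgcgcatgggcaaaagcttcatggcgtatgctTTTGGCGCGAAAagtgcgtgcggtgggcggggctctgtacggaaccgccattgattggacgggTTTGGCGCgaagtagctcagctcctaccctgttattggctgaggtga
Ccne1, chr7:38107491-38107740, minus strand: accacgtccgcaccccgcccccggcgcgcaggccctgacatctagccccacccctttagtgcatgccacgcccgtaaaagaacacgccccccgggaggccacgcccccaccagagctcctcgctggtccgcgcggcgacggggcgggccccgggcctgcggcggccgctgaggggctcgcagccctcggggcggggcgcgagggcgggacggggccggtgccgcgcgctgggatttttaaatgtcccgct
In Mcm5 the 2 matches overlapped and lay 153 bases before the start, and in Mcm6 the overlapping pair lay 110 bases before it. The match of Orc1 lay 27 bases before its start, that of Gins3 41 bases and those of Cdc6 and Pola1 138 bases before theirs, while that of Clspn lay 21 bases after its start.

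Gmnn itself differed in the direction of the labels. Its level, like all levels here a log2 intensity after quantile normalization, was 9.66, 9.74 and 9.63 in knockdown bodies with dox, against 10.33, 10.15 and 10.05 without dox. In overexpression bodies it was 11.38 and 10.83 with dox on day 5 and 11.04 on day 4, against 10.29, 10.15 and 10.35 without dox. The groups did not overlap in either line, and the fitted differences, dox minus no dox, were -0.50 ± 0.14 in the knockdown line and 0.82 ± 0.14 in the overexpression line (log2 ± SE). Neither was called over all genes (limma adjusted p = 0.965 for the first and 0.922 for the second). The labels do not say if the transgene's transcript is read by that probe set. Cdt1, the partner of Geminin and no member of the list, stood at 10.78, 10.98 and 10.98 in knockdown bodies with dox, against 11.07, 11.25 and 11.16 without. These 2 sets of arrays did not overlap, yet the difference of -0.24 ± 0.11 was not called (limma adjusted p = 0.965). In the overexpression line Cdt1 differed by 0.10 ± 0.11.

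The deposited intensities had array means of 677.3 to 696.6 and medians of 145.3 to 182.2. Arrays correlated with each other at 0.948 to 0.994 over all genes. Among markers of embryoid bodies, the pluripotency factor Pou5f1 stood at 11.96 to 12.77, and the primitive streak factor Mixl1 between 7.03 and 11.94. No detection call was made. The lowest Mixl1 level, in knockdown replicate 2 without dox, was not far above the filter on dim genes (6.455). Levels of different genes come from different probes and are not compared with each other.

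Over the 12 arrays the 49 genes kept to narrow ranges, from 0.19 log2 units for Orc6, a subunit of the origin recognition complex, and 0.24 for Mcm7 to 1.19 for the cyclin Ccne1 and 1.22 for its relative Ccne2. The clamp loader genes Rfc3 (1.00) and Rfc5 (0.99) and the single-strand binding gene Rpa3 (0.89) followed. The median deviation of the 49 genes from their own means was 0.043, 0.096 and 0.126 in knockdown bodies with dox, against 0.013, 0.072 and 0.081 without dox. On day 5 it was -0.087 and -0.175 in overexpression bodies with dox, against -0.095 and -0.192 without dox. On day 4 it was 0.093 in the overexpression body with dox, against 0.061 in the one without. The 4 day 5 arrays, all of the overexpression line, thus lay below all 8 day 4 arrays of both lines, with and without dox. The knockdown line had no day 5 array, and in the overexpression line the days were different replicates. For comparison, the same median over all 15950 genes stayed between -0.012 and 0.015 on every array.

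**Figure D1:**
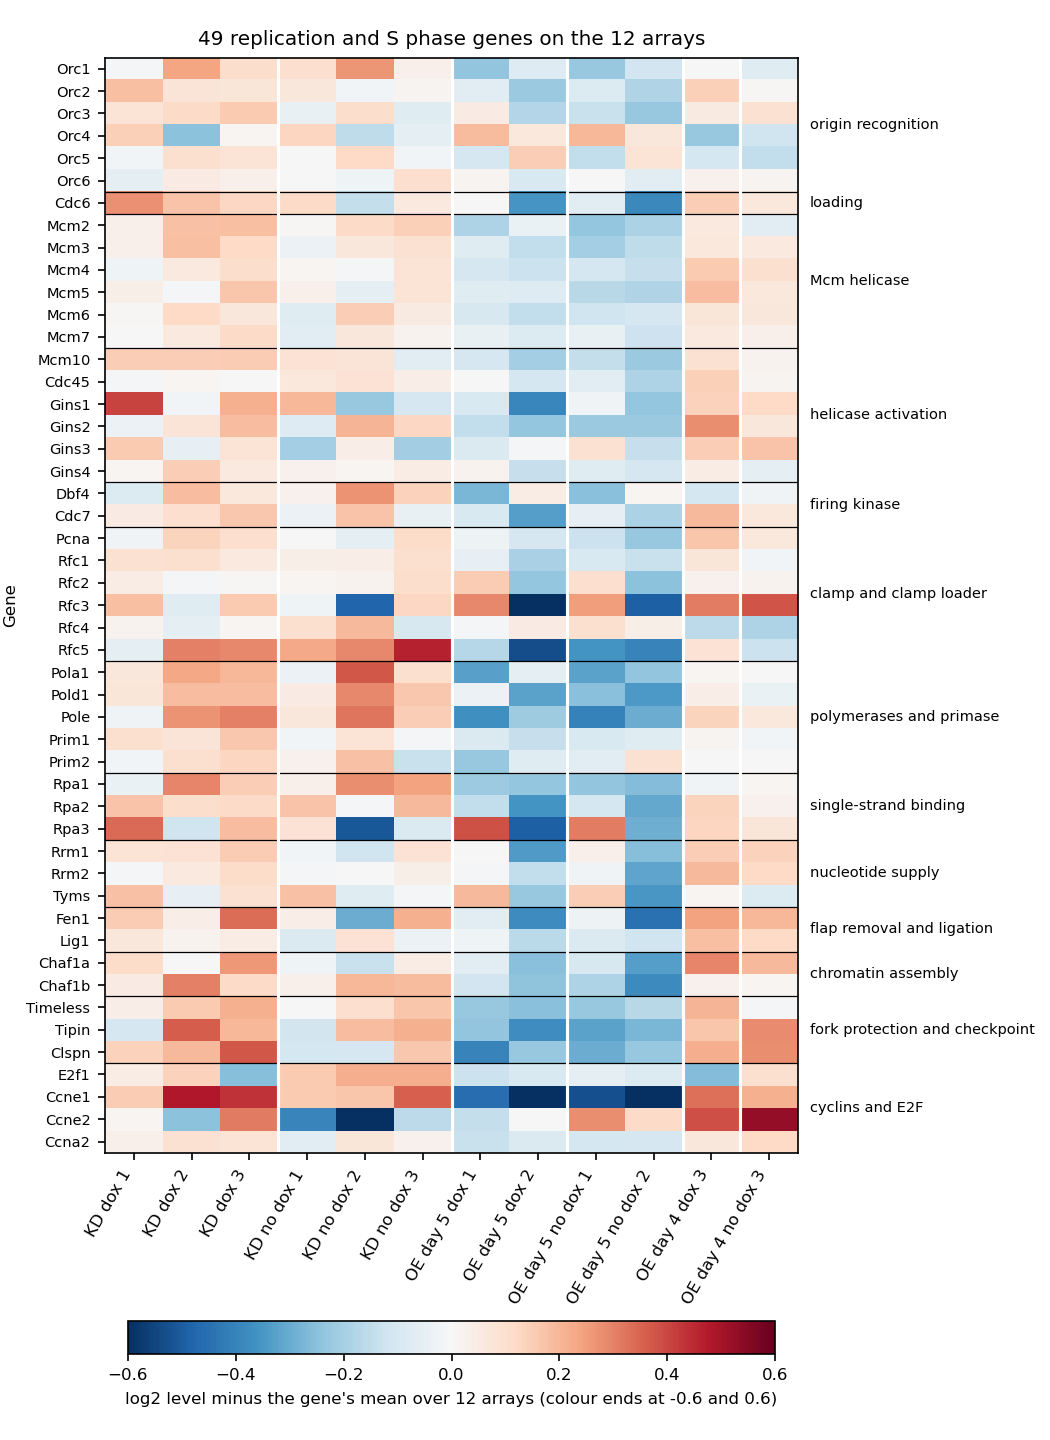
Level of each of the 49 genes (rows, grouped by role) on each of the 12 arrays (columns), as the log2 level minus the gene's mean over the arrays, with red above and blue below that mean. The 4 day 5 columns are mostly blue, while the dox and no dox columns of one line and day look much alike.

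With dox in the knockdown line the largest differences upward among the 49 genes were those of Ccne2, a cyclin that activates Cdk2 at S phase entry, Rpa3, the small subunit of the single-strand binding complex, and Clspn, the claspin gene of the replication checkpoint, and the largest downward was that of E2f1, which switches on many S phase genes. None of them was called. In limma 0 of the 49 genes passed an adjusted p of 0.05, where 0.00627% of all genes did, and 2 had an unadjusted p under 0.05, where 3.76% of all genes did. The smallest adjusted p was 0.965. Of the 49, 37 were higher and 12 lower with dox, with a median log2 difference of 0.045, against a median of 0.010 and 47.3% lower over all genes. With each array centred on its median the split was 47 higher and 2 lower, with all genes then at a median of 0.068, and Cdc45, Dbf4 and Rfc4 were then among the higher. Fewer cells of a type and less RNA per cell cannot be told apart in such bulk samples.

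Ccne2 stood at 8.25, 7.997 and 8.56 in knockdown bodies with dox, against 7.85, 7.55 and 8.08 without dox. Each dox array was higher than the control of its own number, while the groups overlapped. The difference was 0.44 ± 0.16 (log2 ± SE, 1.36-fold, limma unadjusted p = 0.0199), and 0.30 without dox replicate 3. That last fit kept control replicate 3, the highest control, and the gaps between arrays of equal number were 0.41, 0.45 and 0.47. Clspn stood at 9.28, 9.34 and 9.52 with dox, against 9.04, 9.04 and 9.30 without, again with the lowest dox array just under the highest control. Its difference was 0.25 ± 0.11 (limma unadjusted p = 0.0374), and 0.18 without dox replicate 3 (limma unadjusted p = 0.145). Here too the highest control, replicate 3, was kept, and the gaps between arrays of equal number were 0.24, 0.30 and 0.21. E2f1 stood at 10.42, 10.52 and 10.12 with dox, against 10.54, 10.60 and 10.60 without. Here the groups did not overlap, but dox replicate 3 was far lower than the other 2, and the difference of -0.22 ± 0.11 shrank to -0.11 without that array.

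By role, the licensing genes of the knockdown line differed little with dox. The 6 Mcm helicase genes were all higher, by 0.02 (Mcm4) to 0.07 (Mcm3). Of the origin recognition genes 3 of 6 were higher, from -0.02 for Orc1 to 0.12 for Orc3. The loader Cdc6 stood at 11.07, 10.96 and 10.92 with dox, against 10.91, 10.65 and 10.85 without. All of its dox arrays were above all controls, with a difference of 0.18 ± 0.12. Among the helicase activation genes Gins1, a subunit of the Gins complex, differed by 0.24 ± 0.15 and Gins3 by 0.19 ± 0.10, against -0.06 ± 0.08 for Cdc45, whose dox arrays (10.05, 10.07 and 10.07) lay just below the controls (10.12, 10.15 and 10.10). The kinase activator Dbf4 differed by -0.09 ± 0.12.

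The fork genes of that line spread to both sides. The clamp loader genes Rfc3 (0.21 ± 0.25) and Rfc5 (-0.15 ± 0.13) lay at the 2 ends of their group, and Rfc4 was at -0.07 ± 0.09. Rpa3 was at 0.30 ± 0.24, with 0.21 by its dimmer probe set. Without control replicate 2, in which both were lowest among the 3 controls, Rpa3 came to 0.14 and Rfc3 to 0.04. That fit kept dox replicate 2, in which both were lowest among the dox arrays. Between arrays of equal number Rpa3 differed by 0.25, 0.39 and 0.27, and Rfc3 by 0.21, 0.40 and 0.03. The polymerase and primase genes lay between -0.02 (Pold1) and 0.10 (Prim1). All 3 nucleotide supply genes, both flap removal and ligation genes, both chromatin assembly genes and all 3 fork protection and checkpoint genes were higher, with medians of 0.04, 0.12, 0.09 and 0.06. Counted over the 49, all dox arrays lay above all controls for 3 genes (Cdc6, Mcm10 and Orc2), where this held for 4.97% of all genes, and below them for 2 (Cdc45 and E2f1), where it held for 3.25%. Both shares of the list are near those of all genes. Averages of 3 sets of markers were set beside these, and each overlapped in range between dox and no dox. The 3 primitive streak genes averaged 8.12 to 10.13 with dox, against 7.26 to 9.13 without, the 6 pluripotency genes 10.47 to 10.99 with dox, against 10.96 to 11.11 without, and the 6 genes of G2 and mitosis 11.09 to 11.15 with dox, against 10.96 to 11.10 without. The pluripotency genes did not differ one way. Nanog stood at 12.15, 11.90 and 12.32 with dox, against 11.96, 11.60 and 12.07 without. Zfp42 stood at 9.62, 10.50 and 9.77 with dox, against 10.59, 10.85 and 10.86 without. The part of these markers in the differences above was not tested.

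In the overexpression line the differences with dox were small. In limma 0 of the 49 genes were called, where 0.00627% of all genes were, and 0 had an unadjusted p under 0.05, where 0.934% of all genes did. There were 31 higher and 18 lower, with a median of 0.025, against 0.014 over all genes. The 5 largest differences upward were those of Mcm2 (0.11 ± 0.09), the clamp Pcna (0.11 ± 0.08), Mcm5 (0.11 ± 0.08), the polymerase gene Pold1 (0.10 ± 0.10) and Gins2 (0.09 ± 0.10). Downward they were Ccne2 (-0.22 ± 0.16), E2f1 (-0.15 ± 0.11), the primase gene Prim2 (-0.11 ± 0.10), Gins1 (-0.07 ± 0.15) and Rfc3 (-0.05 ± 0.25). Gins1 and Rfc3 turned to the other side, at 0.03 and 0.20, without day 5 dox replicate 2, and E2f1 came to -0.04 without the day 4 control. The fit without day 5 dox replicate 2 kept control replicate 2, the lower day 5 control in Gins1 and Rfc3. Between arrays of equal number Gins1 differed by -0.07, -0.16 and 0.02, and Rfc3 by 0.04, -0.13 and -0.07.

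The helicase gene Mcm2 stood at 11.78 and 11.92 with dox on day 5, against 11.73 and 11.77 without, and at 12.02 with dox on day 4, against 11.90 without. Within each day its dox arrays lay above the controls. Ccne2 stood at 8.10 and 8.24 with dox on day 5, against 8.52 and 8.36 without, and at 8.63 with dox on day 4, against 8.77 without. Its dox arrays lay below the controls on both days. Such separation within each day held upward for 4 of the 49 (Mcm2, Mcm3, Mcm5 and Pcna), where it held for 5.15% of all genes, and downward for 3 (Prim2, E2f1 and Ccne2), where it held for 3.99%. By role the cyclin and E2F genes had the lowest median (-0.09) and the nucleotide supply genes the highest (0.09).

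**Figure D2:**
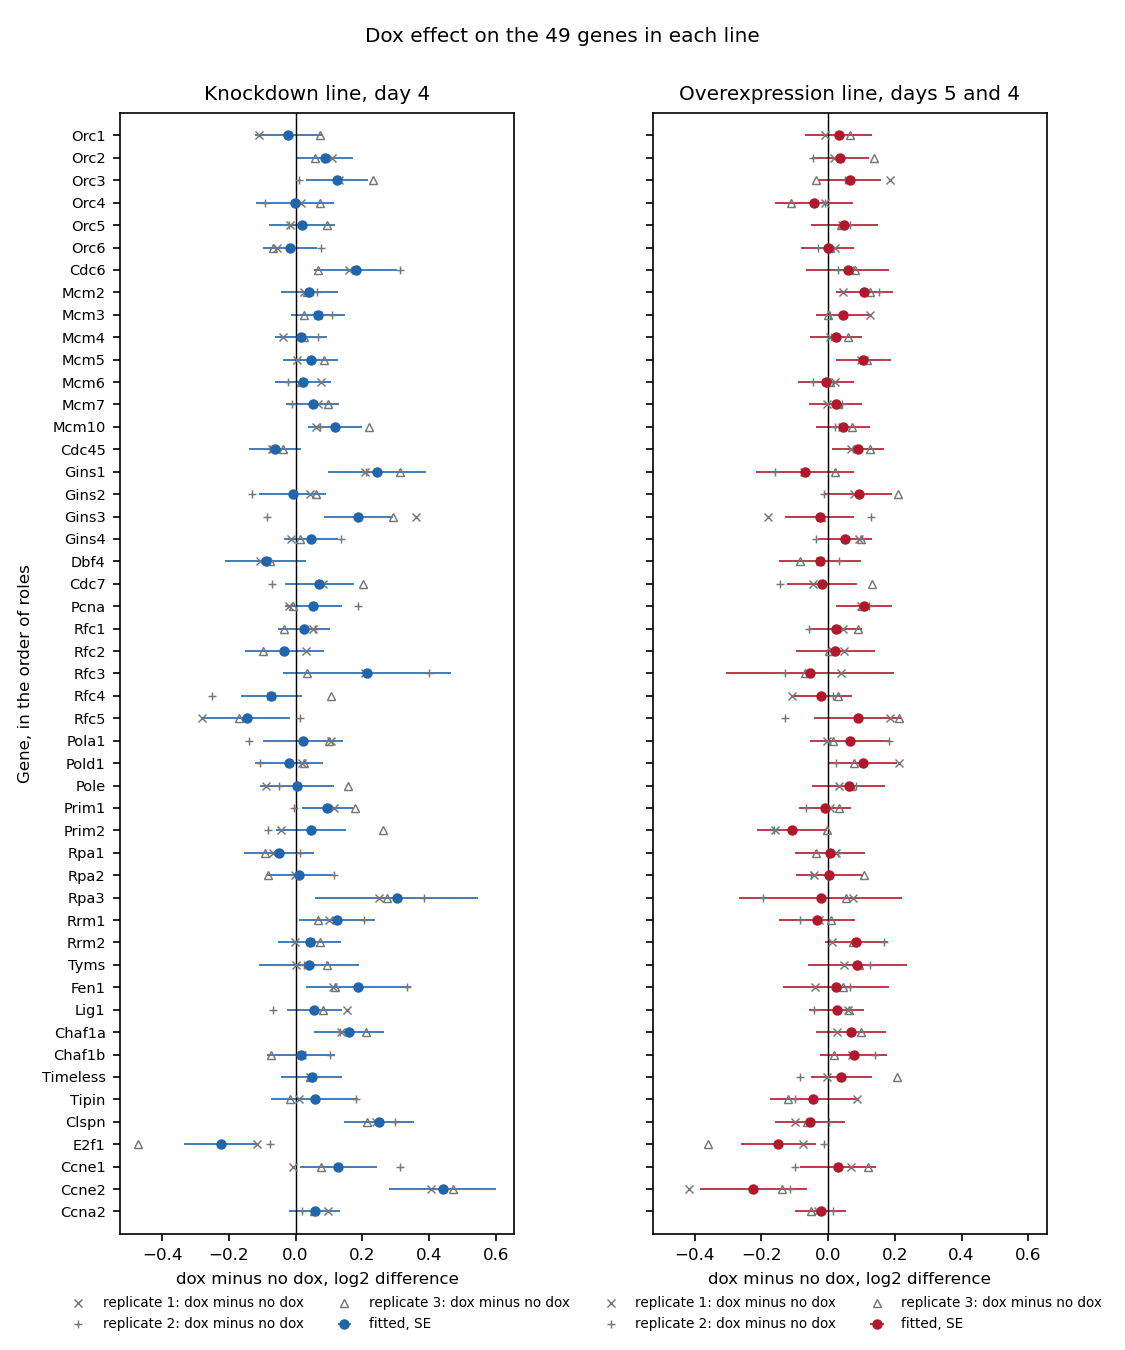
Dox minus no dox (log2 difference) for each of the 49 genes in the knockdown line (left, day 4) and the overexpression line (right, days 5 and 4), with the fitted difference and its SE as filled points and bars and each replicate number's own difference as grey marks. Ccne2 lies at 0.44 in the knockdown line and -0.22 in the overexpression line and is the gene farthest from 0 in both.

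The difference between the effects of dox in the 2 lines sets the response to lower Geminin against that to higher Geminin. The lines also differed in the day on which dox began and, in part, in the day of collection. Line, time in dox and the direction of Geminin cannot be told apart here. In limma 0 of the 49 genes were called, as was 0.0% of all genes, and 1 had an unadjusted p under 0.05, where 2.13% of all genes did. That gene was Ccne2, whose effect in the knockdown line exceeded that in the overexpression line by 0.67 ± 0.23 (log2 ± SE, limma unadjusted p = 0.0144, adjusted p = 0.9995). Between arrays of equal number Ccne2 was higher with dox by 0.41, 0.45 and 0.47 in the knockdown line and lower by -0.42, -0.12 and -0.14 in the overexpression line. The opposite pattern, lower in each knockdown pair and higher in each overexpression pair, was seen for Cdc45, with a difference of -0.15 ± 0.11. Each pattern held for 1 of the 49 genes, against 2.39% and 2.46% of all genes. Next in size came Rpa3 (0.33 ± 0.35), Gins1 (0.31 ± 0.21), Clspn (0.30 ± 0.15) and Rfc3 (0.27 ± 0.36) upward, and Rfc5 (-0.24 ± 0.18), Pold1 (-0.13 ± 0.14), Gins2 (-0.10 ± 0.14) and E2f1 (-0.07 ± 0.16) downward. Without day 5 dox replicate 2 the difference came to 0.07 for Rpa3 and 0.01 for Rfc3. That fit kept day 5 control replicate 2, which was low in both genes. Between arrays of equal number Rpa3 differed by 0.25, 0.39 and 0.27 in the knockdown line, against 0.07, -0.20 and 0.06 in the other. Rfc3 differed by 0.21, 0.40 and 0.03, against 0.04, -0.13 and -0.07. The split was 27 higher and 22 lower, or 46 and 3 with each array centred on its median, and there E2f1 and Gins2 turned to the higher side.

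Some genes differed the same way with dox in all 6 pairs of equal number. Cdc6, Mcm2, Mcm3, Mcm5, Mcm10, Tyms and Chaf1a were higher in each pair, which is 7 of 49 (14.3%), against 2.88% of all genes. The count goes by sign alone, and some of the differences were close to 0. Examples are 0.001 for Mcm3 in overexpression pair 3 and 0.001 for Tyms in knockdown pair 1. Cdc6, the origin loader, was higher by 0.16, 0.31 and 0.07 in the knockdown pairs and by 0.06, 0.03 and 0.08 in the overexpression pairs. None of the 7 genes was called in either line. E2f1 alone of the 49 was lower in all 6 pairs, as were 0.915% of all genes.

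By day nearly all of the genes differed one way. In the overexpression line the 4 day 5 arrays were lower than the 2 day 4 arrays for 46 of the 49 genes, with a median log2 difference of -0.23, against a median of -0.0005 and 50.2% lower over all genes. In limma 1 of the 49 genes was called, where 0.558% of all genes were, and it fell. With an unadjusted p under 0.05 there were 26, of which 25 were lower, where 14.2% of all genes passed in either direction. All 4 day 5 arrays lay below both day 4 arrays for 37 of the 49 genes, where this held for 15.1% of all genes, and above them for 2, where it held for 15.4%. Day 5 was replicates 1 and 2 and day 4 was replicate 3, so day and replicate cannot be told apart in this line. With only the arrays of the overexpression line in the fit, 0 of the 49 were called and 18 had an unadjusted p under 0.05.

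The called gene was Ccne1, the cyclin that with Cdk2 starts S phase. Its level was 10.998 and 10.75 with dox and 10.93 and 10.85 without dox on day 5, against 11.79 with and 11.67 without dox on day 4. The days did not overlap, and the 6 knockdown arrays, all of day 4, lay at 11.61 to 11.94 like the day 4 pair. As deposited, its intensities were 2021, 1783, 1951 and 1873 on day 5, against 3520 and 3240 on day 4. The fitted difference was -0.85 ± 0.12 (1.80-fold lower, limma adjusted p = 0.0233). It was lost as a call, at a limma adjusted p of 0.0652, in the overexpression line alone, and in 6 of the 12 fits that left out 1 array (0.0507 to 0.557), with a difference that stayed between -0.78 and -0.91.

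Fork protection and checkpoint genes came next, with all 3 lower and a median of -0.52. Clspn stood at 8.75 and 8.92 with dox and 8.84 and 8.92 without dox on day 5, against 9.36 with and 9.42 without dox on day 4. Tipin, which with Timeless steadies the fork, stood at 10.54 and 10.41 with dox and 10.46 and 10.50 without dox on day 5, against 10.94 with and 11.06 without dox on day 4. In both genes the 4 day 5 arrays lay close to each other and below the day 4 pair. The differences were -0.54 ± 0.11 for Clspn (limma adjusted p = 0.067), -0.52 ± 0.14 for Tipin (0.122) and -0.32 ± 0.10 for Timeless (0.173), none called.

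**Figure D3:**
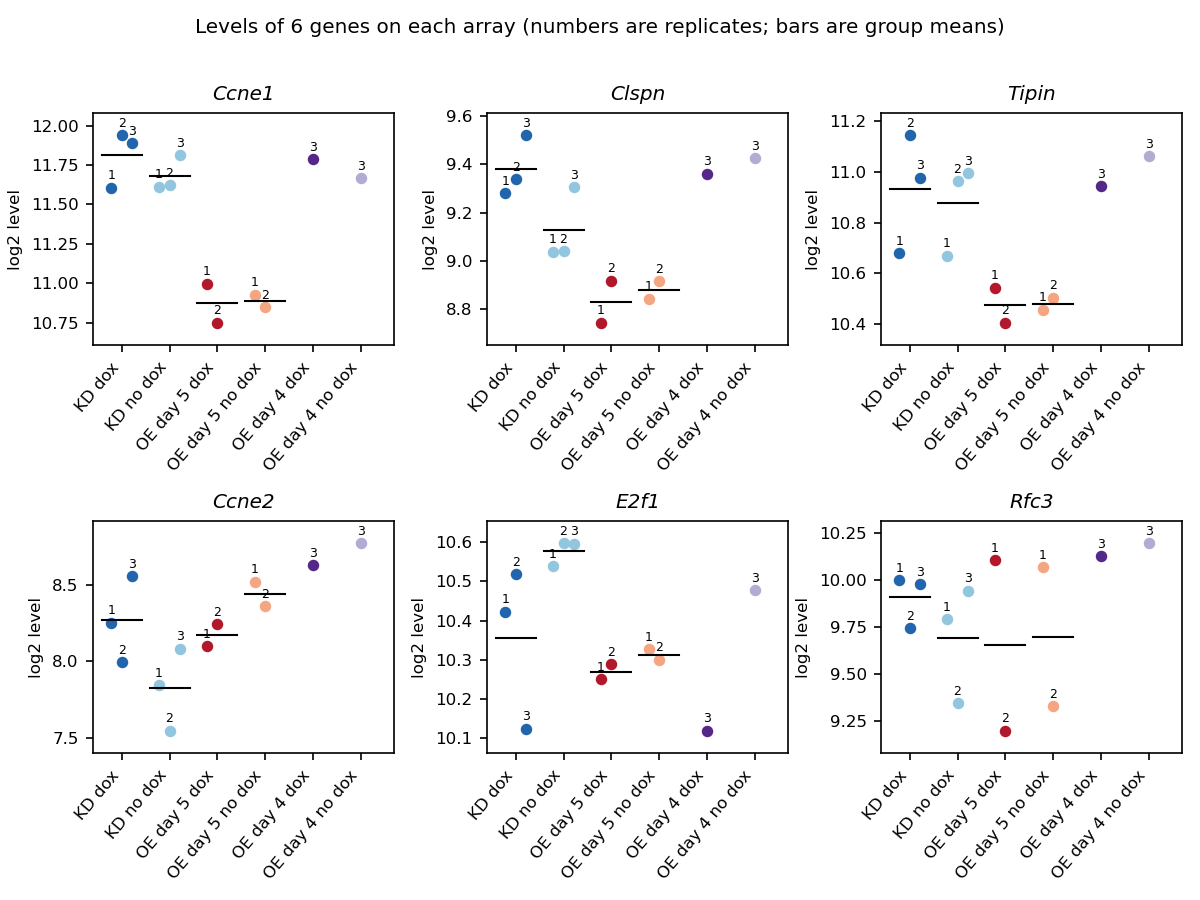
Log2 level of 6 genes on each array, in the groups named under each panel (KD, knockdown line on day 4, and OE, overexpression line), with replicate numbers beside the points and bars at the means of groups with more than 1 array. Ccne1, Clspn and Tipin are low in the 4 day 5 arrays, Ccne2 differs in opposite ways with dox in the 2 lines, E2f1 is low in 2 dox arrays numbered 3, and Rfc3 is low in arrays numbered 2.

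Licensing genes were lower by smaller amounts on day 5. All 6 Mcm helicase genes were lower, from -0.12 ± 0.08 for Mcm7 to -0.25 ± 0.09 for Mcm5, with a median of -0.20. Mcm5 stood at 11.66 and 11.65 with dox and 11.56 and 11.55 without dox on day 5, against 11.91 with and 11.79 without dox on day 4. For 5 of the 6 helicase genes all day 5 arrays lay below both day 4 arrays, the exception being Mcm2. Cdc6 differed by -0.31 ± 0.13. The origin recognition genes were split, with Orc2 at -0.21 ± 0.09 and Orc3 at -0.19 ± 0.10 on one side and Orc4 at 0.30 ± 0.12 and Orc5 at 0.12 ± 0.11 on the other, and Orc1 and Orc6 at -0.13 and -0.06. Orc4 stood at 10.07 and 9.94 with dox and 10.08 and 9.95 without dox on day 5, against 9.65 with and 9.76 without dox on day 4. Its dox and no dox arrays of day 5 lay above both day 4 arrays, and its difference was the largest of the 3 genes that were higher on day 5.

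All 6 helicase activation genes were lower on day 5, with Gins2 at -0.38 ± 0.11, Gins1 at -0.31 ± 0.16, Mcm10 at -0.22 ± 0.09 and Gins4 at -0.07 ± 0.09. The kinase gene Cdc7 was at -0.30 ± 0.11, against -0.05 ± 0.13 for its activator Dbf4. Among the polymerase genes Pole, the catalytic subunit of the leading-strand polymerase, was at -0.42 ± 0.12, and Pola1 and Pold1 both at -0.24. The clamp Pcna was at -0.24 ± 0.09 by either probe set. Its loader was uneven, with Rfc3 at -0.48 ± 0.27 and Rfc5 at -0.34 ± 0.14, against Rfc4 at 0.21 ± 0.10.

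Rfc3 stood at 10.11 and 9.20 with dox and 10.07 and 9.33 without dox on day 5, against 10.13 with and 10.19 without dox on day 4. Its low values were those of replicate 2, while replicate 1 was close to day 4, and its difference was -0.29 without day 5 dox replicate 2 and -0.68 without dox replicate 1. Of the remaining genes, flap endonuclease Fen1 was at -0.45 ± 0.17, the chromatin assembly subunit Chaf1a at -0.43 ± 0.11, Rpa2 at -0.31 ± 0.11 and the ribonucleotide reductase genes Rrm1 and Rrm2 both at -0.28. The thymidylate synthase gene Tyms (-0.02 ± 0.16) and E2f1 (-0.01 ± 0.12) were near 0, and both turned to the higher side with each array centred on its median. Rpa3 was at -0.13 by its brighter and -0.35 by its dimmer probe set. By the brighter one day 5 replicate 1 (10.16 with and 10.09 without dox) lay above day 4 (9.91 and 9.86). Replicate 2 (9.29 and 9.49) lay below it. Rfc2, at -0.08 ± 0.13, likewise lay above day 4 in replicate 1 and below it in replicate 2. Among the cyclins Ccne2 was at -0.39 ± 0.17 and Ccna2, which drives S phase and G2, at -0.20 ± 0.08.

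The knockdown line supplied 6 more day 4 arrays, and a comparison of the 4 day 5 arrays with all 8 day 4 arrays was added after the data had been seen. It mixes day with line and shares its day 5 arrays and 2 of its day 4 arrays with the one above. In limma 16 of the 49 genes were called and all 16 fell, where 10.1% of all genes were called in either direction. They were Ccne1 (-0.86 ± 0.09, limma adjusted p = 2.51e-04), Rfc5, Pole, Tipin, Clspn, Pold1, Rpa1, Pola1, Chaf1b, Rpa2, Timeless, Gins2, Chaf1a, Mcm10, Mcm2 and Mcm3. The smallest difference among them was -0.22 for Mcm3. Again 46 of the 49 were lower, with a median of -0.19, against -0.02 over all genes. Without any model, the highest day 5 array lay below the lowest of all 8 day 4 arrays for 22 of the 49, where this held for 3.71% of all genes. By role these were Mcm3 to Mcm6, Orc1, Orc2, Mcm10, Gins2, Cdc7, Rfc1, Rfc5, Pola1, Pole, Prim1, Rpa1, Rpa2, Chaf1b, all 3 fork protection and checkpoint genes, Ccne1 and Ccna2. For Ccne2 the 2 references gave opposite signs, -0.39 ± 0.17 against the day 4 arrays of its own line and 0.09 ± 0.12 against all 8, and Orc5 came to -0.006 against all 8.

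**Figure D4:**
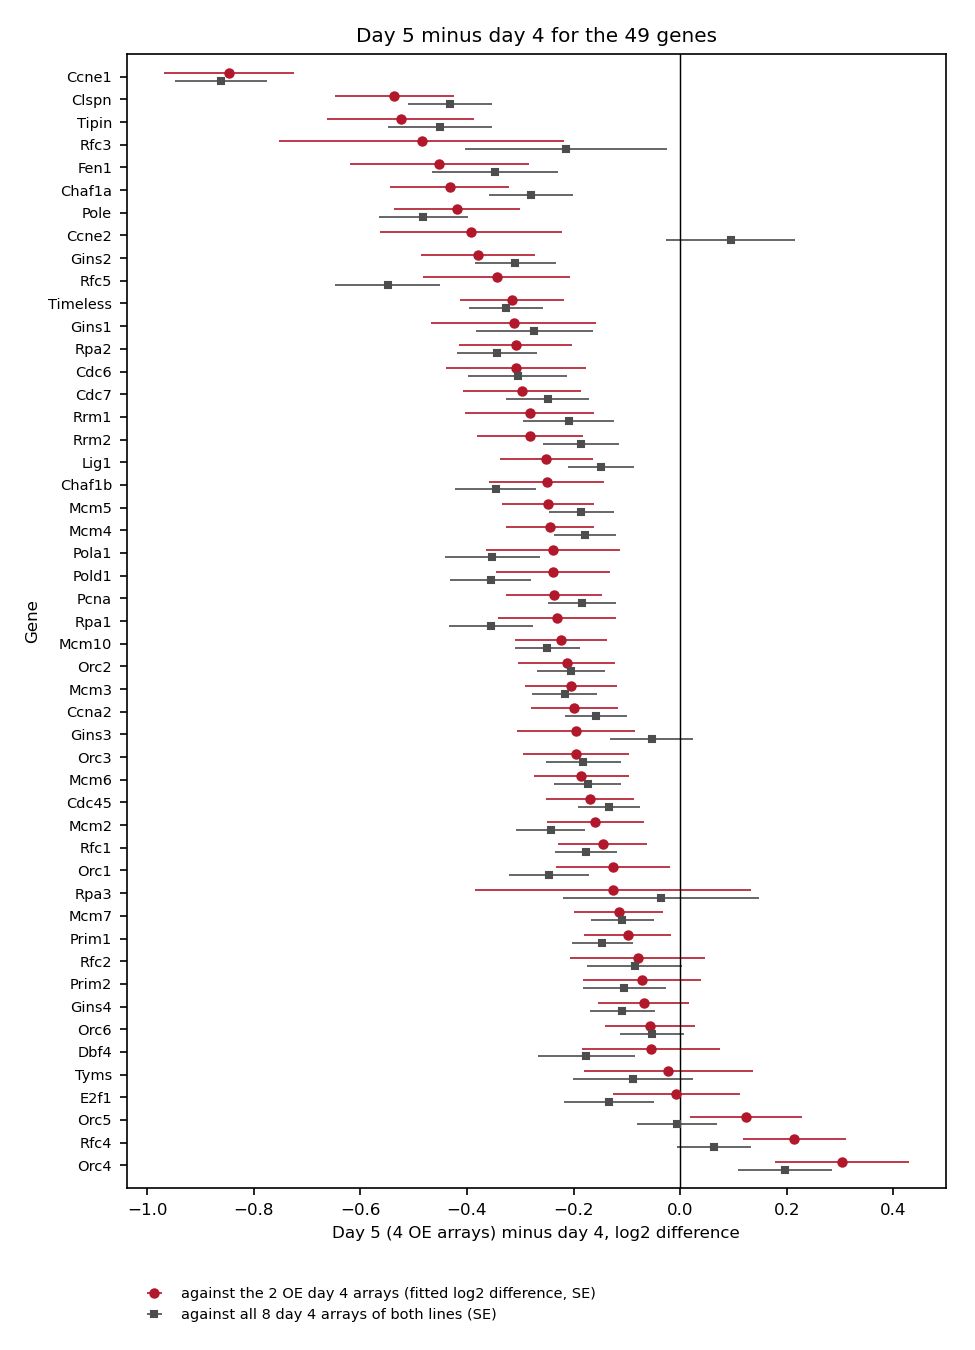
Day 5 minus day 4 (log2 difference with its SE) for each of the 49 genes, sorted by the comparison within the overexpression line (red, 4 against 2 arrays), with the comparison against all 8 day 4 arrays of both lines in grey. Ccne1 lies at -0.85 and -0.86, nearly all other genes lie left of 0 in both, and Ccne2 lies on different sides.

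Other markers moved with day too. Over the 6 genes of G2 and mitosis the mean level was 10.84 to 11.01 on day 5, against 11.09 to 11.10 on day 4 of the overexpression line, with 6 of 6 lower and a median difference of -0.14. The 3 primitive streak genes averaged 10.07 to 10.83 on day 5, against 10.95 to 11.14 on day 4, with 3 of 3 lower. The 3 epiblast genes differed by a median of -0.66, but their averages overlapped, at 8.62 to 9.89 on day 5, against 9.77 to 9.85 on day 4. Day 5 replicate 1 of Fgf5 (10.84 with and 10.97 without dox) was close to day 4 (10.66 and 10.86), and replicate 2 was lower (9.08 and 9.52). Otx2 was likewise below day 4 only in replicate 2. The 3 definitive endoderm genes averaged 8.87 to 9.90 on day 5, against 8.23 to 8.35 on day 4, with 0 of 3 lower, and the 3 nascent mesoderm genes 8.41 to 8.79 on day 5, against 8.14 to 8.20 on day 4. Of 6 pluripotency genes 4 were lower, by a median of -0.09, and the 4 visceral endoderm genes differed by a median of 0.16. The feeder fibroblast genes stood at 7.12 to 7.30 on day 5, against 7.09 to 7.18 on day 4, with only 4 of 6 above the filter. The part of these cell types in the lower replication genes was not tested.

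Lower genes were found with and without E2F-type letters in the windows given. The starts that place these windows were not checked, so a gene counted as without the letters, E2f1 among them, may hold them elsewhere. The 13 genes with such letters in their promoter were all lower on day 5, with a median of -0.24, against 23 of 26 genes without them, with a median of -0.22, and 10 of 10 genes not in the promoter table, with a median of -0.28. Ccne1 and its long stretch of upstream bases shown above hold none of these letters, while Clspn and Mcm6 do. All 3 genes that were higher on day 5, Orc4, Orc5 and Rfc4, were in the set without them.

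A second list held 46 names of other replication and G1/S genes, in which Dtl also stood under its other name Cdt2. It gave 43 genes with a probe set, all of them tested. On day 5 there were 33 of 43 lower than on day 4 in the overexpression line, with a median of -0.21, against 50.2% lower over all genes. In limma 0 were called, where 0.558% of all genes were. At an unadjusted limma p under 0.05 there were 18 lower and 1 higher, where 14.2% of all genes passed in either direction. Chosen after their values were seen, the repressor E2F genes E2f8 (-0.63 ± 0.15) and E2f7 (-0.50 ± 0.14), the nucleotide enzyme genes Dut (-0.50 ± 0.19) and Tk1 (-0.46 ± 0.15), and the D-type cyclin Ccnd2 (0.72 ± 0.23) mark its ends. E2f8 stood at 8.43 and 8.70 with dox and 8.58 and 8.78 without dox on day 5, against 9.33 with and 9.18 without dox on day 4. Ccnd2 stood at 11.29 and 11.92 with dox and 11.27 and 11.54 without dox on day 5, against 10.80 with and 10.78 without dox on day 4. The 12 genes of this list that lay below all 8 day 4 arrays are again to be read against 3.71% of all genes. With dox, 0 of the 43 were called in either line, where 0.00627% of all genes were in each. At an unadjusted limma p under 0.05 there were 3 in the knockdown line, where 3.76% of all genes passed. In the overexpression line there were 0, where 0.934% of all genes passed.

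Between the lines on day 4, with dox and no dox averaged, the genes differed little. In limma 0 of the 49 genes were called, where 0.408% of all genes were, and 1 had an unadjusted p under 0.05, where 11.3% of all genes did. The median difference, knockdown line minus overexpression line, was -0.004. The gene with the low p was Ccne2, at 7.55 to 8.56 in the 6 knockdown arrays, against 8.63 and 8.77 in the 2 overexpression arrays. All knockdown arrays lay below, by -0.65 ± 0.16 (limma adjusted p = 0.147). Rfc3 was at -0.36 ± 0.25, Chaf1a at -0.20 ± 0.10, Gins3 at -0.19 ± 0.10 and Fen1 at -0.14 ± 0.16, against Rfc5 at 0.27 ± 0.13, Rfc4 at 0.20 ± 0.09, Orc5 at 0.17 ± 0.10, E2f1 at 0.17 ± 0.11 and Rpa1 at 0.16 ± 0.10. Line, transgene, culture and the day on which dox began cannot be told apart here.

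Some of the genes differed more between replicates than between dox and no dox. Replicate 2 was compared with replicate 1 in the 4 groups that hold both. Rpa3 was lower in replicate 2 by -0.46 in knockdown bodies with dox and -0.59 in those without, and by -0.87 on day 5 with dox and -0.60 on day 5 without. Rfc3 was lower by -0.26 and -0.45 in those knockdown groups and by -0.91 and -0.74 on day 5. Between dox and no dox arrays of equal number the widest gap was 0.39 for Rpa3 and 0.40 for Rfc3, both in knockdown replicate 2. Tyms, Gins1, Fen1 and Cdc6 were also lower in replicate 2 in all 4 groups, by means of -0.35, -0.34, -0.29 and -0.26. Dbf4, Pola1 and Pole were higher in all 4, by means of 0.27, 0.23 and 0.20. Taken over the list, 11 of 49 genes were lower in all 4 groups (22.4%) and 9 were higher (18.4%), against 21.2% and 21.6% of all genes, so the list as a whole did not stand out. Cell type markers also differed between these replicates. The pluripotency gene Esrrb stood at 9.79 in replicate 2 and 7.93 in replicate 1 of the knockdown line with dox. Sox2, Zfp42 and Klf4 were also higher in replicate 2 there. Pou5f1 (12.56 against 12.63) and Nanog (11.90 against 12.15) were lower, so the pluripotency genes did not differ one way. Mixl1 stood at 8.04 in replicate 2 and 10.95 in replicate 1 of the knockdown line with dox. The part of cell type in the replicate differences was not tested.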

How the data were processed

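Total RNA of 12 samples, 1 µg each, was made into biotin-labelled target and hybridised to Affymetrix gene arrays, per the labels' protocols. The authors deposited linear intensities for 35512 probe sets on each array. How the authors summarised and normalized these deposited intensities is not given in the sources used here. Precision is limited by the 12 arrays, each of them 1 sample.

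Values were transformed as log2(intensity + 1) and quantile normalized over all probe sets. The annotation table given with the arrays named 1 gene for 21789 probe sets, several for 1621 and none for 12102, and 21698 of the 21789 had a gene number in the mouse RefSeq table. The brightest probe set stood for each of 19938 genes, and genes below the 20th percentile of mean level (log2 6.455, signal 86.73) were not tested, which left 15950. One limma 3.58.1 model in R 4.3.3 (lmFit, eBayes) held a baseline for each line and day and 1 dox effect per line, with no replicate block (7 residual and 3.501 prior degrees of freedom). Genes were called at a Benjamini-Hochberg adjusted p under 0.05 over all 15950 genes. The steps were tested on simulated data. Fold changes on this scale understate those of dim genes.

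The members and lists were chosen with earlier results of these data known. All 49 may be named, and each comparison singles out the called genes and the 5 with the largest difference each way. Alternatives were a replicate block, other scalings, filters, pseudocounts, probe set rules and array weights, the arrays of 1 line, day 5 alone, and leaving out each array. Promoter letters were searched in RefSeq sequences of GRCm38.p6. No coordinates are given for array genes, since no build is named for them.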

Additional observations from a re-analysis of the deposited data

Results flagged for a closer look

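For Ccne2 every knockdown pair of equal number was higher with dox and every overexpression pair lower. The effect of dox in the knockdown line exceeded that in the overexpression line by 0.665 (log2), a difference that limma did not call (unadjusted p = 0.0144, adjusted p = 0.9995). Cdc45, the helicase partner of the Gins complex, showed the opposite pattern, lower in every knockdown pair and higher in every overexpression pair. Its difference between the lines was -0.151, which limma did not call either (unadjusted p = 0.195, adjusted p = 0.9995). Each pattern was shown by 1 of the 49 genes and by 2.39% and 2.46% of all genes. The direction of Geminin cannot be told apart from line, dox start and, in part, day of collection.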

How the results depend on the processing

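With dox, 0 of the 49 genes were called in either line or in the difference under every alternative run, 21 for the overexpression line and 20 for each of the others. The median of the 49 moved by more than the spread between replicates (SD 0.0495) only with each array centred on its median, to 0.152 in the knockdown line, 0.140 for the difference and -0.176 for day. The count called by day depended on the setting. It was 30 with array weights, in which both day 4 arrays of the overexpression line had a weight of 5.568 and the other arrays at most 1.23, 0 with the arrays of that line alone, 16 against the day 4 arrays of both lines, and 0 to 2 without 1 array. It was 0 without either day 4 array, either day 5 control, day 5 dox replicate 2 or knockdown dox replicate 3, and 2 without knockdown control replicate 3, which added Clspn (limma adjusted p = 0.0474). Between the lines 3 genes were called with array weights, Ccne2, Rfc4 and Gins3. Over all genes the count called by day was 89, against 33 with median centring, 27 with no filter, 151 with a pseudocount of 50, 2567 with array weights, 19 in that line alone, 1610 against the day 4 arrays of both lines and 0 to 148 without 1 array. Between the lines it was 65, against 2617 with array weights and 0 to 91 without 1 array. With dox in the overexpression line it was 1, against 201 with array weights.

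Arrays of equal number are not stated to be paired. Their deviations from the group means correlated at 0.602, 0.438 and 0.051 for replicates 1, 2 and 3 of the knockdown line and at 0.785 on day 5, and over the 49 genes alone at 0.823, 0.653 and 0.441 and at 0.859. Since the third value over all genes is under 0.1, the numbers were not taken as pairs. The other values were 0.438 or more, so the SEs and p-values of the main fit count gaps between replicates as spread. With a replicate block within each line, 0 of the 49 genes were called with dox in the knockdown line, in the overexpression line or in the difference, and 8, 1 and 4 had an unadjusted p under 0.05. Over all genes the block gave 1941, 572 and 1384 at that p, against 599, 149 and 340 without it. In the knockdown line Ccne2 differed by 0.44 ± 0.08 with the block (limma unadjusted p = 6.80e-04, adjusted p = 0.189). Clspn differed there by 0.25 ± 0.06 (limma unadjusted p = 0.00393, adjusted p = 0.279). Day and line lie inside the block, and no block fit was run for them.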
